A study of Rattus norvegicus with 20 samples.

Results

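The livers of 5 rats fed high-isoflavone soybean together with casein in a 1:1 ratio of protein were compared with the livers of 5 rats fed casein as the protein source. These are 10 of the 20 arrays of the series and were taken by their titles, 5 that name the high-isoflavone soybean diet alone and 5 that name the casein diet. The titles were matched to the diets by their wording: the 1:1 diet is the one whose title names the soybean without casein, and the 3:1 diet (3 parts casein to 1 part of the same soybean) is the one whose title names both. All 20 animals were male Sprague-Dawley rats, 4 weeks old on arrival, kept for 5 days on a non-purified diet and then fed the test diet for 21 days. The high-isoflavone soybean was the cultivar Yukipirika, the conventional soybean of a further 1:1 diet was the cultivar Fukuyutaka, and the casein diet held 200 g of casein per kg. Of 8 rats fed the high-isoflavone 1:1 diet and 7 fed casein, the 5 with average food intake in each group were put on arrays, so the arrays do not cover rats that ate much more or less. No group in the labels received soybean without isoflavones or isoflavones without soybean, so the cultivar, its protein and its isoflavones cannot be told apart here. What was measured is messenger RNA of whole liver on a rat expression array, 1 array per rat, as log10 signal that was turned into log2 for this report.

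Isoflavones are plant phenols that bind estrogen receptors and are taken up, conjugated and excreted largely through gut and liver. The liver handles such compounds with oxidising enzymes of the cytochrome P450 family, with enzymes that attach sulfate, glucuronic acid or glutathione, and with membrane transporters. The receptors PXR and CAR switch on many of these genes when they sense foreign compounds, and the factor NRF2 switches on glutathione synthesis and other antioxidant genes.

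Of 27702 probe sets tested, 613 passed an adjusted p of 0.05 between the high-isoflavone 1:1 diet and casein in limma (2.21%), 317 of them higher (1.14%) and 296 lower (1.07%) on the 1:1 diet. With each gene taken by its brightest probe set, 340 of 13462 genes passed (2.53%), of which 179 rose (1.33%) and 161 fell (1.2%), and the median difference over all genes was 0.03 on the log2 scale. Over the same genes, 17.5% had an unadjusted p under 0.05, 56.7% lay above 0 and 43.3% below 0, and the counts of the gene lists are to be read beside these shares. In 683 genes (5.07%) the 5 rats of each diet did not overlap, and 132 genes (0.981%) did not overlap and passed in each of the 20 fits that left out 1 array. For probe sets these counts were 1234 (4.45%) and 215 (0.776%). Below, a gene is said to have risen or fallen where it passed this test, and the levels are log2 signals given from the lowest to the highest rat. The array medians were between 2.45 and 2.57 on the 1:1 diet and between 2.43 and 2.49 on casein, with a mean difference of 0.05 (exact two-sided permutation test, p = 0.0952, n = 5 and 5). With each array centred on its median, 202 probe sets were called higher and 385 lower, and with arrays also scaled to 1 spread 180 were higher and 471 lower, so the share of rises depended on the scaling. The number of genes called was 199 without casein rat 4, 203 without casein rat 5, 181 without 1:1 rat 2 and 200 without 1:1 rat 4. Rats are numbered as in the labels.

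**Figure D1:**
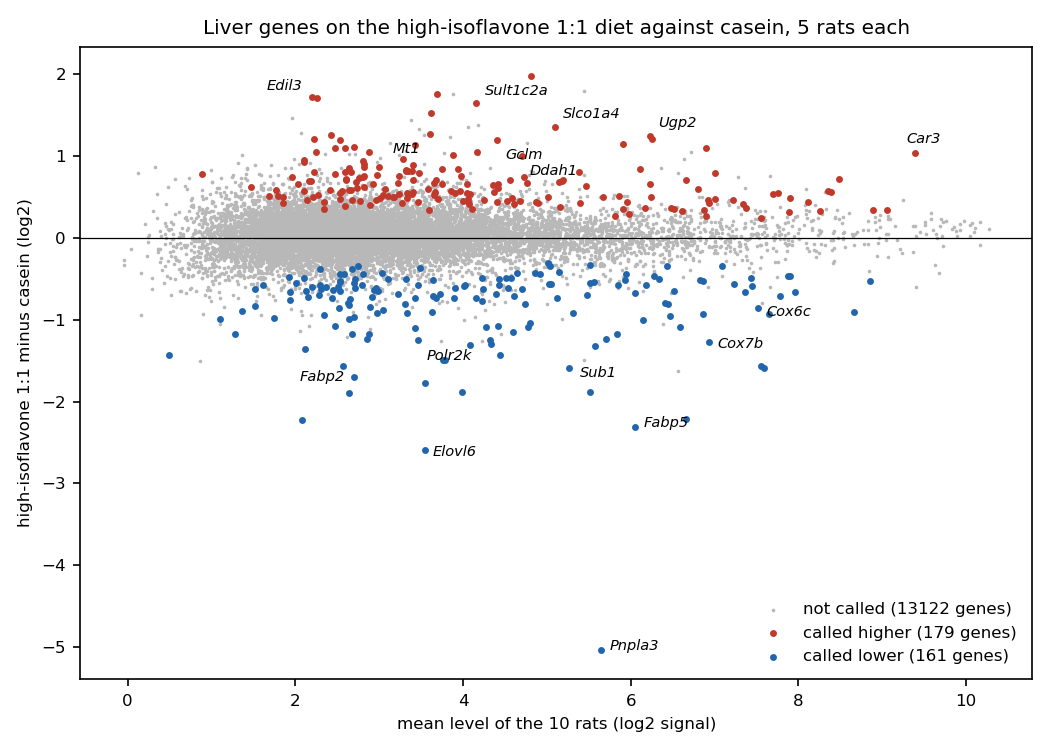
Difference between the high-isoflavone 1:1 and casein diets (vertical, log2) against the mean level of the 10 rats (horizontal, log2 signal), 1 point per gene. The 179 genes called higher are red and the 161 called lower are blue, and the lipid genes Pnpla3 and Elovl6 lie lowest, while Sult1c2a, Ugp2, Slco1a4 and Car3 are among the labelled rises.

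The livers carried the markers of hepatocytes. Over the 9 measured hepatocyte markers the mean level was 8.50, 8.65 and 8.67 in the lowest, middle and highest 1:1 rat and 8.68, 8.75 and 8.81 in casein rats, and 8 of 9 markers did not pass the test. In this mean every 1:1 rat lay below every casein rat, narrowly at 8.673 against 8.676. Of the 9 markers 3 had an unadjusted p under 0.05 (33.3%, against 17.5% of all genes), and 5 lay above 0 and 4 below. Tat, the tyrosine aminotransferase of amino acid breakdown, was the marker that passed, and fell by 1.25 in log2 signal (standard error, SE, 0.305, adjusted p = 0.0331 in limma). In whole liver, a lower level cannot be told apart from fewer cells of a type, here or in any result below.

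Subunits of large protein machines were among the genes with the smallest adjusted p. Cox7b, a small nuclear-encoded subunit of cytochrome c oxidase, the last enzyme of the respiratory chain, stood at 5.86, 6.24, 6.43, 6.46 and 6.50 in 1:1 rats and at 7.44, 7.53, 7.55, 7.56 and 7.77 in casein rats. It fell by 1.27 on the log2 scale, to 0.415 times the casein level (SE 0.143, adjusted p = 0.000117, limma). Cox7b2, a paralog of Cox7b, stood at 4.15, 4.16, 4.28, 4.37 and 4.41 in 1:1 rats and at 5.17, 5.20, 5.38, 5.40 and 5.43 in casein rats, and fell by 1.04 (SE 0.098, adjusted p = 1.53e-05). The highest 1:1 rat lay below the lowest casein rat in both genes, and since the pair is related in sequence their probe sets may read each other's transcripts. Cox6c, another oxidase subunit, stood at 6.87, 6.88, 7.05, 7.32 and 7.32 in 1:1 rats and at 7.87, 7.92, 7.95, 7.95 and 8.01 in casein rats, and fell by 0.85 (adjusted p = 0.000207). Cox7c of the same enzyme fell by 0.66, Ndufa4, an oxidase-associated subunit, fell by 0.49, and Ndufa5 of complex I fell by 0.81, with adjusted p from 0.0034 to 0.00842. Rats of the diets did not overlap in any of these genes. The call of Ndufa5 was lost when rat 1 of all 4 diets was left out.

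These subunits were a minority of their complexes. Of 69 measured genes of the respiratory chain and ATP synthase, 5 fell and 0 rose, and the median difference was -0.06 against 0.03 for all genes. The list does not hold the small ATP synthase subunit Atp5mk, Cox7b2 or Cox6c-ps1, a copy of Cox6c, which were looked up after their values were seen and fell by 0.80, 1.04 and 0.62. The other 64 members of the list lay between -0.38 (Ndufs4) and 0.15 (Ndufa11), which includes the oxidase subunits Cox4i1 at 0.09, Cox5a at 0.11 and Cox6a1 at 0.05. Single members passed in other machines too. Of 41 cytosolic ribosomal protein genes, Rpl26 and Rps24 fell and 0 rose, with a median of -0.06, and of 42 proteasome genes only Psma2, a core particle subunit, passed, where it fell by 0.56 beside a list median of -0.09. The call of Psma2 was lost without casein rat 2 (adjusted p = 0.054), casein rat 4 (0.0545) or 1:1 rat 2 (0.0693). Below 0 lay 38 of the 42 proteasome genes. Of 43 translation factors 0 passed in limma, and the 5 with an unadjusted p under 0.05 (11.6%) were a smaller share than the 17.5% of all genes.

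Rpl26, of the large ribosomal subunit, stood at 6.66, 7.27, 7.28, 7.35 and 7.36 in 1:1 rats and at 7.89, 8.07, 8.12, 8.14 and 8.36 in casein rats, and fell by 0.93 (SE 0.149, adjusted p = 0.0018, limma). Rps24, of the small subunit, averaged 6.95 ± 0.168 in 1:1 rats and 7.51 ± 0.0965 in casein rats (SD, n = 5 each), and fell by 0.57 (adjusted p = 0.0109). In both genes 1:1 rat 2 was the lowest, and the remaining 1:1 rats were also below all casein rats. Polr2k, the small subunit shared by the nuclear RNA polymerases, stood at 3.31, 3.42, 3.82, 3.84 and 4.03 in 1:1 rats and at 4.87, 4.91, 4.93, 5.05 and 5.12 in casein rats, and fell by 1.29 (adjusted p = 0.000117). Sub1, a coactivator of RNA polymerase II transcription, stood at 3.89, 4.45, 4.55, 4.62 and 4.84 in 1:1 rats and at 5.96, 5.97, 6.05, 6.13 and 6.22 in casein rats, and fell by 1.6 (adjusted p = 0.000129). A second, dimmer Sub1 probe set had a difference of -0.50 and did not pass (adjusted p = 0.211).

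Timm8b, a chaperone that escorts proteins through the mitochondrial intermembrane space, stood at 2.82, 3.30, 3.65, 3.67 and 3.68 in 1:1 rats and at 4.65, 4.70, 4.73, 4.74 and 4.84 in casein rats, and fell by 1.31 (adjusted p = 0.000207, limma). Slirp, an RNA-binding protein that stabilises mitochondrial messenger RNA, fell by 1.25 at its brightest probe set (adjusted p = 0.000346). Its second probe set was not lower, at 3.58 in 1:1 rats and 3.29 in casein rats (difference 0.29, adjusted p = 0.355), so the fall of Slirp depends on the probe set read. Trappc2b, of a complex that tethers transport vesicles, stood at 2.65, 2.74, 3.11, 3.11 and 3.59 in 1:1 rats and at 4.39, 4.41, 4.44, 4.64 and 4.80 in casein rats, and fell by 1.5 (adjusted p = 0.000519). Pfdn4, a subunit of the chaperone prefoldin, fell by 1.17, and Commd6, a member of the COMM domain family, fell by 1.89. For Commd6 the 1:1 rats lay between 2.77 and 3.53, against 3.65 in casein rat 1 and 5.07 to 5.4 in the other casein rats. On conventional soybean Commd6 differed from casein by -1.79 (adjusted p = 0.00342).

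Some of these genes were also lower than on conventional soybean fed at the same 1:1 ratio, a comparison that holds the soybean share fixed and changes the cultivar. In that test 21 of 27702 probe sets passed in limma (0.0758%), all of them lower on the high-isoflavone diet, by 0.55 to 1.45 on the log2 scale, and 1959 reached an unadjusted p of 0.05 or less. The rats of both soybean diets did not overlap in any of the 21, which choosing them by this same test favours. Of the 21, 10 passed in each fit that left out 1 array. The count was 11 without 1:1 rat 2, 12 without 1:1 rat 1, 11 without conventional soybean rat 4, 13 without conventional soybean rat 3, 13 with arrays centred and scaled and 13 without rat 1 of all 4 diets. Probe sets with a single gene symbol numbered 15, and all 15 are named here, some outside the naming rule and so after their values were seen: Trappc2b, 4930522L14Rikl, Sub1, Polr2k, Slirp, Cox7b, Timm8b, Rpa3, Cox7b2, Rbis, Rpl26, Eml4, Cetn3, Cox6c and Atp5mk. In 14 of the 15 genes this probe set is the brightest of its gene, and in the other the brightest did not pass. In 1:1 rats Eml4, at 1.35 to 1.75, and 4930522L14Rikl, at 0.86 to 1.65, lay below the array medians. Rpa3 is the small subunit of replication protein A, Rbis a ribosome biogenesis factor, Cetn3 a centrin of the centrosome, Eml4 a microtubule-binding protein and Atp5mk a small membrane subunit of ATP synthase.

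Cox7b2 stood at 4.15, 4.16, 4.28, 4.37 and 4.41 in high-isoflavone 1:1 rats against 5.09, 5.14, 5.19, 5.19 and 5.31 in conventional soybean rats, a difference of -0.91 (SE 0.0977, adjusted p = 0.000168, limma). Polr2k stood at 3.31, 3.42, 3.82, 3.84 and 4.03 in high-isoflavone 1:1 rats against 4.61, 4.83, 4.83, 4.85 and 4.97 in conventional soybean rats, a difference of -1.14 (adjusted p = 0.00238). Trappc2b differed by -1.33, Sub1 by -1.25 and Cox7b by -1.04, with adjusted p from 0.00279 to 0.00767. In each of these genes every high-isoflavone 1:1 rat was below every conventional soybean rat.

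The conventional soybean diet itself lay close to casein in these probe sets. Its difference from casein was between -0.34 and 0.38 over the 21, with a smallest adjusted p of 0.212, while the high-isoflavone 1:1 diet differed from casein by -1.6 to -0.65. The 3:1 high-isoflavone diet, with less of the same soybean, differed from casein by -1.11 to -0.25. There Cox7b2, at -0.80 (adjusted p = 0.00143, limma), and Cox7b, at -0.84 (0.0367), passed, and the others of the 21 did not. These comparisons share rats, so they are given side by side and were not set against each other. The 21 were chosen by the test between the high-isoflavone 1:1 and conventional soybean diets in these same rats. That choice favours low high-isoflavone 1:1 values and high conventional soybean values, so these differences and the averages below are descriptions and no separate evidence. Averaged over the 21 probe sets, the 5 high-isoflavone 1:1 rats stood at 4.20, 3.99, 4.44, 4.37 and 4.44 in the order of their numbers, the 3:1 rats between 4.33 and 5.12, the conventional soybean rats between 5.09 and 5.40 and the casein rats between 5.19 and 5.42. Rat 2 of the 1:1 diet was the lowest of its group in 15 of the 21 probe sets, and without it 19 of the 21 still passed against casein and 11 against conventional soybean, with median differences of -0.98 and -0.88 in place of -1.04 and -0.91.

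**Figure D2:**
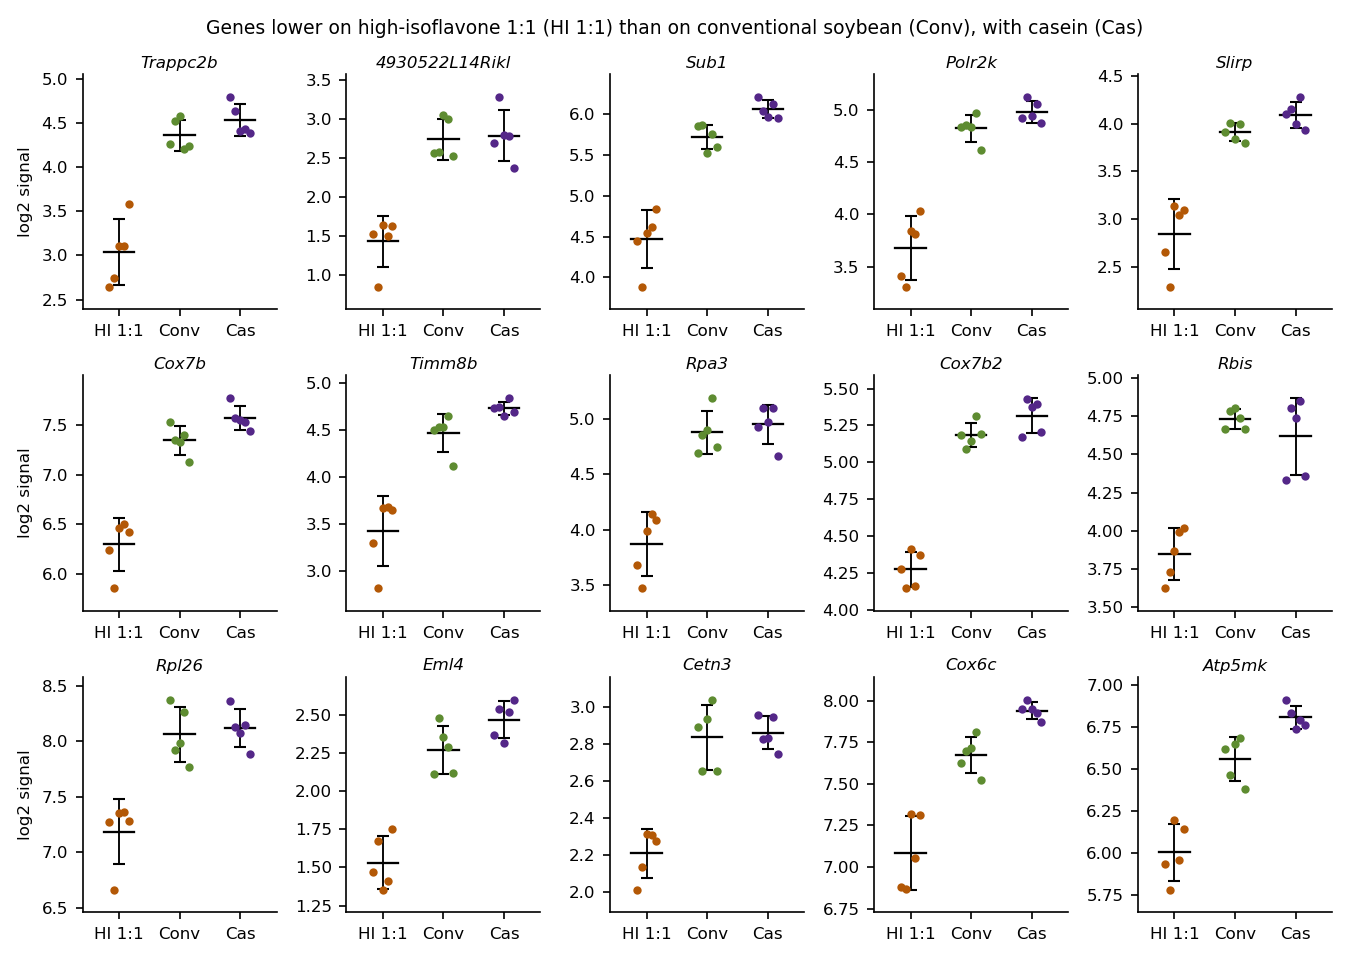
Log2 signal of the 15 single-gene probe sets lower on the high-isoflavone 1:1 diet (HI 1:1, left) than on conventional soybean (Conv, middle), with casein (Cas, right), 1 point per rat and 5 rats per diet. Bars are the mean and SD, and in all 15 probe sets the HI 1:1 rats lie below all Conv and all Cas rats, for example Cox7b2 with a highest HI 1:1 value of 4.41.

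The arrays read transcripts near their 3′ end, so measures of RNA integrity were set beside these falls. The actin control probe sets differed between the 3′ and the 5′ end by 1.43 ± 0.397 in 1:1 rats and 1.45 ± 0.107 in casein rats (log2, SD, n = 5 each, exact permutation p = 0.952). Rat 5 of the 1:1 diet stood apart at 2.10, and without it the 1:1 mean was 1.27 ± 0.153 (n = 4), a difference of -0.18 from casein and of -0.34 from the conventional soybean mean of 1.6 ± 0.202 (n = 5). The GAPDH control probe sets differed by 0.867 ± 0.0461 in 1:1 rats and 0.924 ± 0.0808 in casein rats (exact permutation p = 0.222), beside 0.822 ± 0.0813 in conventional soybean rats. The part of RNA integrity in the falls was not tested further. The fallen genes had shorter genomic spans, as a description without a test: the median span in the GRCr8 annotation of RefSeq was 14.5 kb for 160 fallen genes, 27.6 kb for 179 risen genes and 22.3 kb for 13444 measured genes, and it was 6.59 kb for the 14 genes whose brightest probe set was lower than on conventional soybean. A genomic span takes in introns, so it does not give the length of the messenger RNA. Between the 1:1 and the 3:1 high-isoflavone diets 0 probe sets passed in limma (0%), with 2000 at an unadjusted p under 0.05, and the smallest adjusted p of the 21 probe sets was 0.368.

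Antioxidant genes moved singly. None of the rises from here on passed in the test against conventional soybean, where 0 probe sets were higher. Gclm, the modifier subunit of glutamate-cysteine ligase, which makes the precursor of glutathione, stood at 4.63, 4.69, 4.89, 5.17 and 5.61 in 1:1 rats and at 3.48, 3.65, 3.91, 3.91 and 4.09 in casein rats. It rose by 1.19, or 2.28-fold (SE 0.183, adjusted p = 0.00116, limma), with no overlap. On conventional soybean Gclm differed from casein by 0.87 (adjusted p = 0.0198). Osgin1, an oxidative stress-induced growth inhibitor, stood at 6.19, 6.68, 6.70, 7.09 and 7.60 in 1:1 rats and at 5.03, 5.24, 5.30, 5.96 and 6.70 in casein rats, a rise of 1.20 (adjusted p = 0.0265). The highest casein rat for Osgin1 reached the middle of the 1:1 rats, and the call was lost without casein rat 1, 3 or 4 or 1:1 rat 2 or 4, with adjusted p of 0.0663, 0.061, 0.0806, 0.0947 and 0.0729 in that order.

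No other member of the NRF2 list rose in the test. Of 27 measured NRF2 targets 2 rose and 1 fell, with a median of -0.04. In this list 10 had an unadjusted p under 0.05 (37.0%, against 17.5% of all genes), and 11 members lay above 0 and 16 below. The catalytic partner of Gclm, Gclc, differed by -0.01, the quinone reductase Nqo1 by -0.14, sulfiredoxin Srxn1 by 0.10, thioredoxin reductase Txnrd1 by 0.31 and the aldehyde reductase Akr7a3 by 0.79, none past the test. Hmox1, heme oxygenase, fell by 0.52, but its adjusted p of 0.0492 rose above 0.05 in 16 of the 20 fits that left out 1 array, up to 0.126. Of 19 glutathione S-transferases 0 passed in limma and 4 had an unadjusted p under 0.05, and of 26 genes of selenium and peroxide handling 0 passed and 6 had one.

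The promoter of Gclm is shown because the antioxidant response element, the site NRF2 binds, has known letters. It comes from the RefSeq promoter table on build GRCr8, chr2:213031885-213032184, plus strand, and covers 300 bases around the start of the gene. Capitals mark the single match to TGACNNNGC, which here lies on the opposite strand and reads GCNNNGTCA.
Gclm: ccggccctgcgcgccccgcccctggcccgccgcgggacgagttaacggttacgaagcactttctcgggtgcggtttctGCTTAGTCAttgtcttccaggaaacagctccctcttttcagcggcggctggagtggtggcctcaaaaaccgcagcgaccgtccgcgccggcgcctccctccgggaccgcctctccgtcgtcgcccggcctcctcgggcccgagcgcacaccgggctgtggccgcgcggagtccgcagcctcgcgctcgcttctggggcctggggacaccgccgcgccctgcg
A match on either strand was present in 12.06% of 33469 promoters in that table and in 14.41% of the 11118 measured genes with a promoter there. It was present in 27 of 147 risen genes (18.37%) and in 20 of 133 fallen genes (15.04%). The match is a description of letters and not a site shown to be bound.

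Within the conjugation families single genes passed. Sult1c2a, a cytosolic sulfotransferase, stood at 4.66, 4.75, 4.76, 5.22 and 5.51 in 1:1 rats and at 2.70, 3.01, 3.13, 3.37 and 4.48 in casein rats. It rose by 1.64, or 3.12-fold (SE 0.32, adjusted p = 0.00845, limma), and the highest casein rat lay just below the lowest 1:1 rat. Sult4a1, a sulfotransferase relative studied mainly in brain, stood at 1.44, 1.71, 1.73, 2.01 and 2.02 in 1:1 rats and at 2.63, 3.20, 3.4, 3.76 and 3.78 in casein rats, and fell by 1.57 (adjusted p = 0.000346). Of the 16 genes of sulfation, the other 14 did not pass, and the median was 0.08. They include the phenol sulfotransferase Sult1a1 at -0.27 (adjusted p = 0.219), Sult1b1 at 0.10 (adjusted p = 0.737), the estrogen sulfotransferase Sult1e1 at 0.24 (adjusted p = 0.718) and Sult1c3 at 0.44 (adjusted p = 0.0961, or 0.0429 with the rat number as a block). Sult1c2, close in name and sequence to Sult1c2a, differed by 0.41 (adjusted p = 0.515). The other measured sulfotransferase genes lay between -0.38 for Sult2b1 and 0.63 for Sult2a6, none past the test.

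Of 9 measured genes of glucuronidation, Ugp2, which makes the UDP-glucose that feeds glucuronic acid and glycogen, was the 1 that rose. It stood at 6.46, 6.51, 6.74, 7.04 and 7.50 in 1:1 rats and at 5.17, 5.48, 5.70, 5.74 and 5.95 in casein rats, a rise of 1.24 (SE 0.233, adjusted p = 0.00647, limma), with no overlap. Ugdh, the next enzyme on the way to glucuronic acid, differed by 0.35 and Ugt2b15, a transferase, by 0.51, and neither passed. Ces1d, a carboxylesterase that splits esters of drugs and lipids, stood at 7.18, 7.35, 7.42, 7.58 and 7.66 in 1:1 rats and at 5.94, 6.29, 6.31, 6.42 and 6.77 in casein rats, a rise of 1.09 (adjusted p = 0.00842). On conventional soybean Ces1d differed from casein by 1.07 (adjusted p = 0.0153).

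Of 19 genes of the PXR and CAR list 4 rose and 0 fell, with a median of 0.18 and 18 members above 0, where 1.33% of all genes rose and 56.7% lay above 0. Slco1a4, a transporter that takes up organic anions and bile acids, stood at 5.52, 5.52, 5.53, 5.96 and 6.31 in 1:1 rats and at 3.92, 3.96, 4.50, 4.75 and 4.96 in casein rats, a rise of 1.35 (SE 0.308, adjusted p = 0.0214, limma). The call was lost without casein rat 4 (0.0653), casein rat 5 (0.0668) or 1:1 rat 4 (0.0579), while a second Slco1a4 probe set rose by 1.54 (adjusted p = 0.0129). Cyp3a23-3a1, a steroid- and drug-oxidising P450, stood at 7.13, 7.17, 7.42, 7.57 and 7.71 in 1:1 rats and at 6.45, 6.51, 6.55, 6.69 and 6.86 in casein rats, a rise of 0.79 (adjusted p = 0.0119) that did not pass with arrays centred and scaled. Cyp3a18, of the same family, stood at 5.99, 6.52, 6.53, 6.55 and 6.81 in 1:1 rats and at 4.78, 4.98, 5.27, 5.54 and 6.15 in casein rats, a rise of 1.14 (adjusted p = 0.0208). The groups overlapped in Cyp3a18, and its call was lost without casein rat 1, 4 or 5 or 1:1 rat 2 or 4, with adjusted p of 0.0535, 0.0514, 0.067, 0.0553 and 0.0502 in that order. On conventional soybean the difference from casein was 0.81 for Cyp3a23-3a1 (adjusted p = 0.016) and 1.02 for Cyp3a18 (adjusted p = 0.0462). The receptor CAR itself, Nr1i3, averaged 2.83 ± 0.19 in 1:1 rats and 1.62 ± 0.442 in casein rats (SD, n = 5 each), a rise of 1.20 (adjusted p = 0.025) lost without casein rat 1 (0.0671), 3 (0.0535) or 4 (0.0524) or 1:1 rat 1 (0.0532) or 2 (0.0735). PXR itself, Nr1i2, differed by 0.10, and the glucuronide exporters Abcc2 and Abcc3 by 0.08 and 0.12, none past the test. Of the PXR and CAR list 2 genes rose without casein rat 5 and 3:1 rat 1, whose arrays have a higher floor of the signal, and 2 without rat 1 of all 4 diets. Of 8 targets of the dioxin receptor 0 passed in limma and 1 had an unadjusted p under 0.05.

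**Figure D3:**
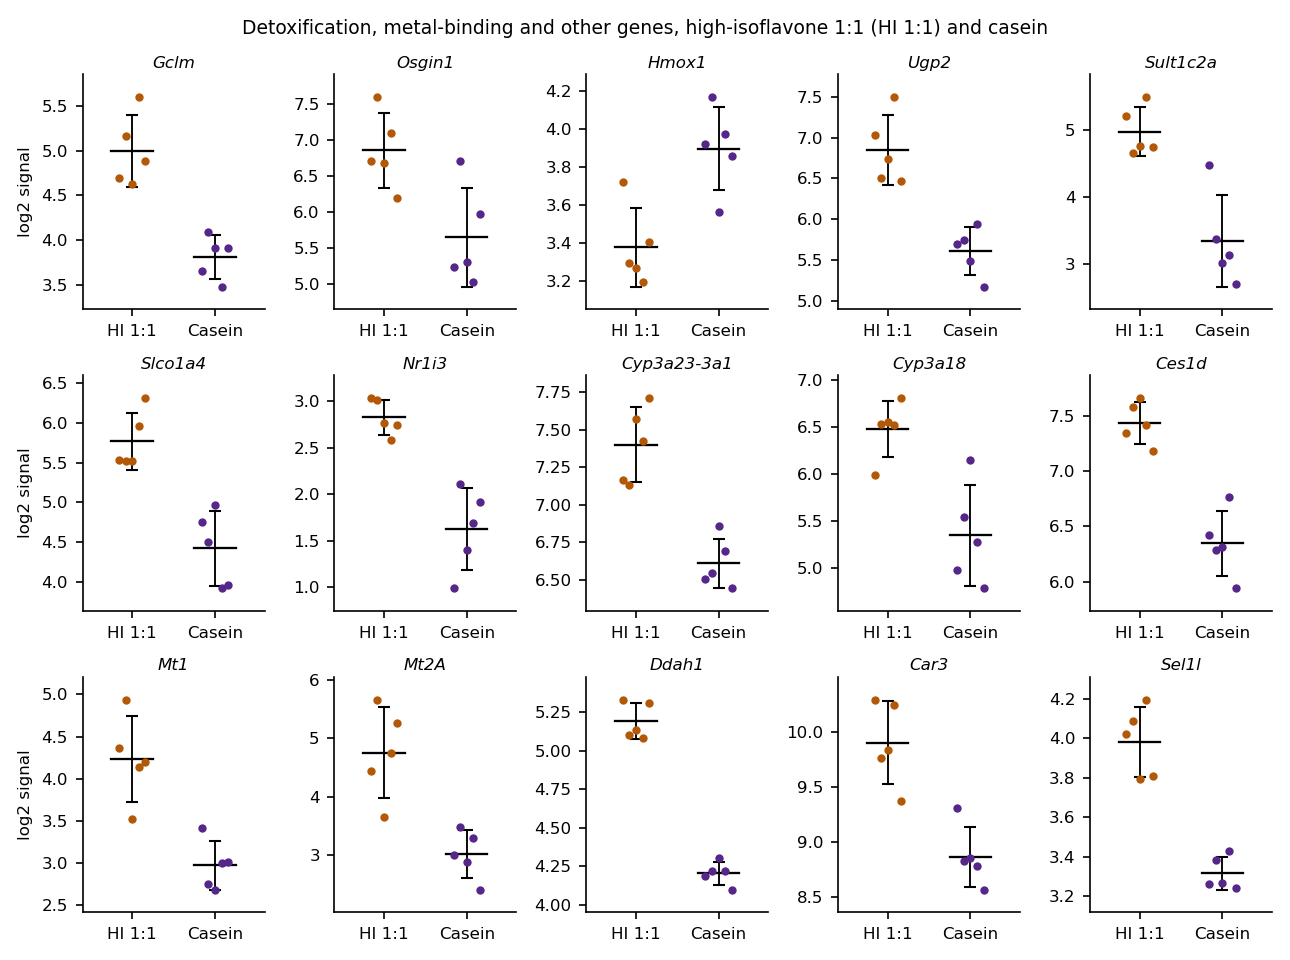
Log2 signal of 15 genes of detoxification, metal binding and other functions on the high-isoflavone 1:1 diet (HI 1:1, left) and casein (right), 1 point per rat, 5 rats per diet, with the mean and SD. Gclm, Ugp2, Ces1d and Ddah1 do not overlap between the diets, Osgin1 and Cyp3a18 overlap, and Mt2A, at 3.66 to 5.67 against 2.40 to 3.48, did not pass the test.

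Of the metallothioneins, small proteins that bind zinc and copper, Mt1 passed the test. Mt1 stood at 3.53, 4.14, 4.20, 4.36 and 4.94 in 1:1 rats and at 2.69, 2.75, 3.0, 3.02 and 3.42 in casein rats, a rise of 1.26 (SE 0.267, adjusted p = 0.0142, limma) that had an adjusted p of 0.0518 without 1:1 rat 2. Mt2A stood at 3.66, 4.44, 4.75, 5.27 and 5.67 in 1:1 rats and at 2.40, 2.88, 3.0, 3.29 and 3.48 in casein rats. The rats did not overlap in either gene, but the difference of Mt2A, 1.75, did not pass (SE 0.527, adjusted p = 0.0868, or 0.0165 in a fit of the 10 compared arrays alone). On conventional soybean the difference from casein was 1.04 for Mt1 (adjusted p = 0.0492) and 2.08 for Mt2A (adjusted p = 0.0486), and on the 3:1 diet it was 0.48 and 0.28, neither past the test. Mt3 differed by 0.29 (adjusted p = 0.163) and Mt4 by 0.20 (adjusted p = 0.378). Of 19 genes of metallothionein and zinc handling, Mt1 alone rose and 0 fell, and the median was 0.16. The metal-sensing factor Mtf1 differed by 0.11 and the zinc importer Slc39a4 by -0.41, neither past the test.

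The promoters of Mt1 and Mt2A are shown because both hold many matches to the core of the metal response element, TGCNCNC or, on the opposite strand, GNGNGCA, marked in capitals, where matches may overlap. They come from the RefSeq promoter table on build GRCr8, both on the minus strand and close to each other, chr19:10832926-10833225 for Mt1 and chr19:10838659-10838958 for Mt2A.
Mt1: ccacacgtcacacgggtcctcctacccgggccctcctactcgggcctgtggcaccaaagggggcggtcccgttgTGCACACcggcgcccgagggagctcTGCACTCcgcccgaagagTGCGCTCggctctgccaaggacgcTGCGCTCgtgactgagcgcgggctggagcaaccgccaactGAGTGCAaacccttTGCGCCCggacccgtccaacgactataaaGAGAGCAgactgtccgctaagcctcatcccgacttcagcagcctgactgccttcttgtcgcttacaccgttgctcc
Mt2A: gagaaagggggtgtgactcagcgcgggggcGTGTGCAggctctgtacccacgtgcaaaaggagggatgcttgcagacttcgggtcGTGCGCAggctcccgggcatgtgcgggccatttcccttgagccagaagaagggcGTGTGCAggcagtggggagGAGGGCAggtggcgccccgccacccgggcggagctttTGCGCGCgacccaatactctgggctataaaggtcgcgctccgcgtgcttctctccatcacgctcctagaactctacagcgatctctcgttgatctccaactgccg
Mt1 held 7 matches and Mt2A 5. At least 1 match was present in 49.59% of 33469 promoters, and 5 or more in 0.6693% of them. At least 1 was present in 96 of 147 risen genes (65.31%), 71 of 133 fallen genes (53.38%) and 60.28% of measured genes. The palindromic estrogen response element, GGTCA and TGACC with 3 free bases between them, was present in 0.02689% of promoters, in 0 of 147 risen genes and in 0 of 133 fallen genes, which says only that these letters are not in the windows searched.

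Several enzymes with other roles rose. Ddah1, which breaks down methylated arginines that inhibit nitric oxide synthase, stood at 5.09, 5.11, 5.13, 5.31 and 5.33 in 1:1 rats and at 4.10, 4.18, 4.22, 4.22 and 4.30 in casein rats, a rise of 0.99 (SE 0.114, adjusted p = 0.000117, limma). Every 1:1 rat was well above every casein rat. Ddah1 differed from casein also on conventional soybean, by 0.81 (adjusted p = 0.00154), and on the 3:1 diet, by 0.70 (adjusted p = 0.0317). Car3, the abundant muscle-type carbonic anhydrase of rat liver, stood at 9.38, 9.76, 9.83, 10.24 and 10.29 in 1:1 rats and at 8.57, 8.78, 8.83, 8.86 and 9.31 in casein rats, a rise of 1.03 (adjusted p = 0.0018). A second Car3 probe set rose by 1.47 (adjusted p = 0.00269), and the brighter one did not pass with arrays centred and scaled. On conventional soybean the brighter one differed from casein by 1.16 (adjusted p = 0.00154). Car8, a relative without carbonic anhydrase activity, rose by 0.65 (adjusted p = 0.0113, not passed without rat 1 of all 4 diets), and the other 11 of 13 carbonic anhydrases did not pass, with a median over all 13 of 0.19. Sel1l, which helps remove misfolded proteins from the endoplasmic reticulum, stood at 3.79, 3.81, 4.02, 4.09 and 4.20 in 1:1 rats and at 3.24, 3.26, 3.27, 3.38 and 3.43 in casein rats, a rise of 0.67 (adjusted p = 0.000618), and was the only 1 of 31 genes of endoplasmic reticulum stress and folding to pass.

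Genes of amino acid breakdown changed in both directions. Of 39 measured, 2 rose and 2 fell, with a median of -0.00. Hal, which starts histidine breakdown, stood at 5.15, 5.37, 5.39, 5.55 and 5.93 in 1:1 rats and at 4.65, 4.75, 4.86, 4.87 and 4.89 in casein rats, a rise of 0.67 (SE 0.134, adjusted p = 0.00978, limma). Dao, D-amino acid oxidase, averaged 4.64 ± 0.139 in 1:1 rats and 4.09 ± 0.19 in casein rats, a rise of 0.55 (adjusted p = 0.0388) that was lost in 7 of the 20 fits without 1 array and under each other scaling. Tat stood at 3.0, 3.49, 3.67, 3.92 and 4.40 in 1:1 rats and at 4.27, 4.80, 5.03, 5.16 and 5.47 in casein rats. Its fall was lost without casein rat 1 (0.0629), 4 (0.0791) or 5 (0.0969) or 1:1 rat 2 (0.0894) or 4 (0.0958). Bckdk, the kinase that switches off branched-chain amino acid breakdown, averaged 3.53 in 1:1 rats and 4.26 in casein rats, and fell by 0.73 (adjusted p = 0.0347) that was lost in 6 of the 20 fits without 1 array. Of 10 urea cycle genes 0 passed in limma and 3 had an unadjusted p under 0.05, with a median of 0.18. Of 27 genes of the amino acid response 0 passed and 5 had one, and of 19 aminoacyl-tRNA synthetases 0 passed and 2 had one. Slc6a13, a carrier of GABA and taurine, rose by 0.60 (adjusted p = 0.0102), although the call was lost without rat 1 of all 4 diets, and was the 1 of 24 amino acid transporters to pass.

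In central carbon metabolism, Pdhx, which anchors a subunit of the pyruvate dehydrogenase complex, fell by 0.74 (SE 0.164, adjusted p = 0.0186, limma), and was lost without casein rat 4 (0.0593), casein rat 5 (0.0572) or 1:1 rat 2 (0.0588). Suclg2, the GTP-forming subunit of succinyl-CoA ligase, stood at 6.12, 6.13, 6.18, 6.21 and 6.24 in 1:1 rats and at 5.54, 5.69, 5.74, 5.82 and 5.93 in casein rats, a rise of 0.43 (adjusted p = 0.00808) that did not pass with arrays centred and scaled. The ATP-forming partner Sucla2 differed by 0.03 and the shared subunit Suclg1 by -0.11, neither past the test. Idh2 rose by 0.50 with an adjusted p of 0.0482 that was lost in 13 of the 20 fits without 1 array. The remaining 18 of 21 citric acid cycle genes did not pass, and the list median was -0.05. Of 29 genes of glycolysis, gluconeogenesis and glycogen, Ugp2 and the glucose-6-phosphate carrier Slc37a4 rose and the liver pyruvate kinase Pklr fell. Slc37a4 rose by 0.35 with an adjusted p of 0.0492 that was lost in 16 of the 20 fits without 1 array. Pklr fell by 0.81 (adjusted p = 0.00762), and a second Pklr probe set fell by 1.17 (adjusted p = 0.00436).

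In the short lists of genes under hormonal control 0 to 3 members passed, or 0% to 27.3% of a list, beside 2.53% of all genes. Of 14 genes of the estrogen response list 4 had an unadjusted p under 0.05 (28.6%, against 17.5% of all genes). In the test 1 of them rose (7.14%) and 0 fell, with a list median of 0.11. The 1 was Agt, the angiotensin precursor made by liver, which stood at 7.84, 8.02, 8.06, 8.06 and 8.16 in 1:1 rats and at 7.37, 7.39, 7.43, 7.54 and 7.68 in casein rats, a rise of 0.54 (SE 0.085, adjusted p = 0.00154, limma) with no overlap. Greb1 differed by 0.34, Ccnd1 by 0.59 and Tff1 by 0.16, none past the test. Of 11 male-predominant liver genes 3 rose (27.3%, against 1.33% of all genes) and 0 fell, with a median of 0.49. In that list 7 had an unadjusted p under 0.05 (63.6%, against 17.5% of all genes) and 9 lay above 0 (81.8%, against 56.7%). Of 10 female-predominant genes 0 passed and 0 had an unadjusted p under 0.05, with a median of -0.02. With arrays centred and scaled 1 male-predominant gene rose, and 1 without casein rat 5 and 3:1 rat 1. Cyp2c13, a male-predominant P450, averaged 8.84 ± 0.0903 in 1:1 rats and 8.12 ± 0.253 in casein rats, a rise of 0.71 (adjusted p = 0.00496) that did not pass with arrays centred and scaled. The 2 male-predominant genes below 0 were the male-specific Cyp2c11 at -0.14 and Cyp2a2 at -0.24, neither past the test. Mup5, a major urinary protein, rose by 0.54 (adjusted p = 0.0388) and was lost in 8 of the 20 fits without 1 array. A dimmer Mup5 probe set rose by 1.02 (adjusted p = 0.0366), lost in 7 of these fits, and another differed by 0.72 without passing (adjusted p = 0.0649). The probe sets of Cyp2c13 and Mup5 belong to families of near-identical genes and may read related transcripts.

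Irs3, an adaptor of the insulin receptor found in rodents, stood at -0.05, 0.80, 0.98, 1.09 and 2.03 in 1:1 rats and at 2.22, 2.59, 3.30, 3.73 and 4.14 in casein rats, and fell by 2.22 (SE 0.484, adjusted p = 0.0171, limma) that had an adjusted p of 0.0561 without casein rat 5. Its relative Irs2, the main adaptor of liver together with Irs1, differed by 0.76 and did not pass (adjusted p = 0.135). The other 24 of 25 genes of the insulin, growth hormone and IGF axis did not pass, among them Igf1 at 0.27 and Igfbp1 at -0.59. Of 13 genes of the thyroid hormone response, Thrsp, which is also a lipogenic gene, fell by 1.59 (adjusted p = 0.0227), lost in 6 of the 20 fits without 1 array, and Dio1, which activates thyroid hormone, differed by 0.76 without passing. Trhr, whose product is the receptor of thyrotropin-releasing hormone, averaged 3.99 ± 0.311 in 1:1 rats and 2.86 ± 0.453 in casein rats, a rise of 1.13 (adjusted p = 0.00565), read by a probe set that may match related transcripts. Of 20 clock genes 0 passed in limma and 4 had an unadjusted p under 0.05, with a median of 0.06.

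Among genes of bile acids, 2 of 20 rose and 0 fell, with a median of 0.26. Besides Slco1a4 this was Baat, which joins bile acids to glycine or taurine, with 7.96, 8.03, 8.05, 8.26 and 8.39 in 1:1 rats and 7.55, 7.61, 7.64, 7.69 and 7.77 in casein rats, a rise of 0.48 (SE 0.102, adjusted p = 0.0141, limma) that did not pass with arrays centred and scaled. Cyp7a1, the rate-limiting enzyme of bile acid synthesis, differed by 0.27 and the bile salt export pump Abcb11 by 0.24, neither past the test. Of 18 lipoprotein genes, hepatic lipase Lipc fell by 0.47 (adjusted p = 0.0242), lost in 5 of the 20 fits without 1 array, and 0 rose.

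**Figure D4:**
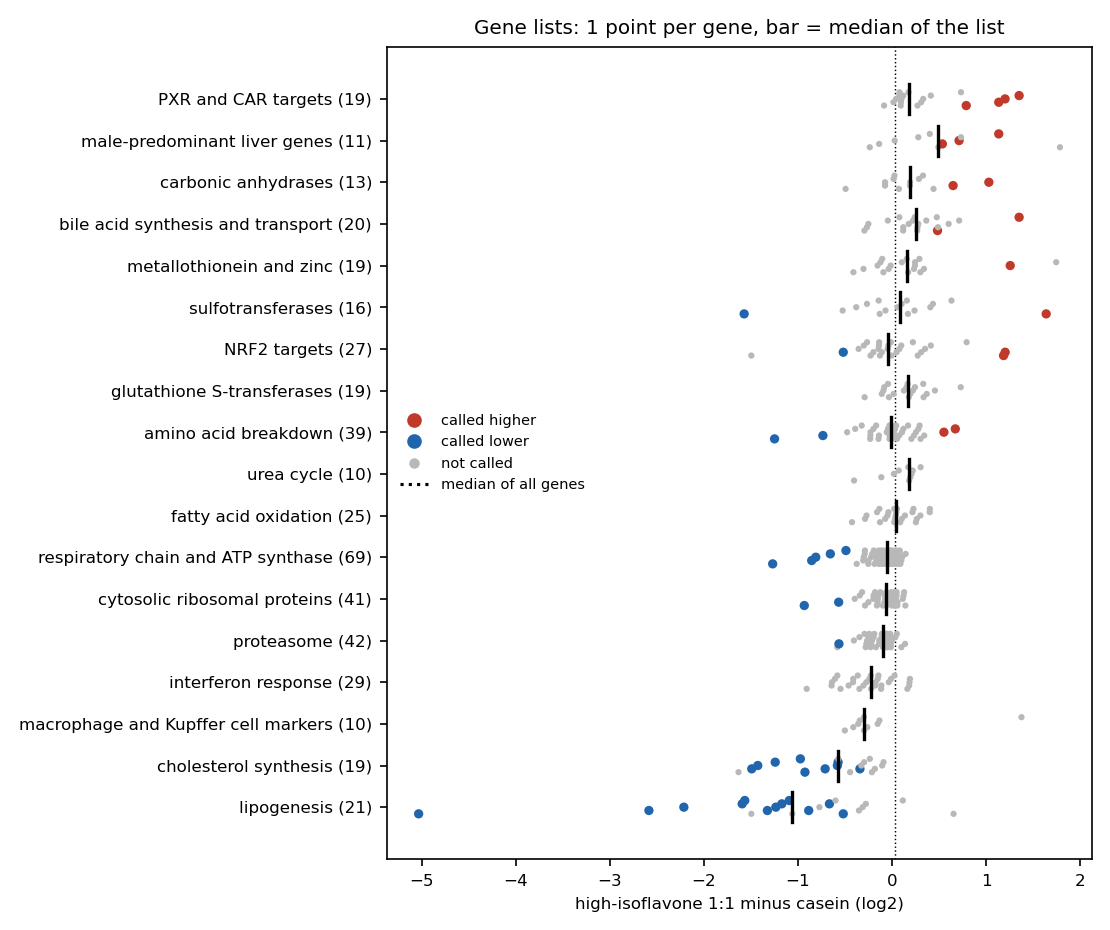
Difference between the high-isoflavone 1:1 diet and casein (log2, horizontal) for each gene of 18 lists, 1 point per gene, with the number of measured genes in brackets. Red and blue points passed the test, black bars are list medians and the dotted line is the median of all genes at 0.03; the lipogenesis list reaches from 0.66 down to -5.04 and has a median of -1.06.

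Among the largest rises and falls were genes outside the lists with varied roles. Cdcp1, a transmembrane adhesion-related protein, stood at 3.60, 4.37, 4.41, 5.04 and 5.37 in 1:1 rats and at 2.02, 2.48, 3.03, 3.16 and 3.36 in casein rats, a rise of 1.75 (SE 0.354, adjusted p = 0.0109, limma), while a second, dimmer probe set differed by 0.30 without passing. Edil3, a secreted integrin-binding protein, stood at 2.08, 2.48, 3.19, 3.63 and 3.94 in 1:1 rats and at 1.02, 1.14, 1.29, 1.61 and 1.67 in casein rats, a rise of 1.72 (adjusted p = 0.00251). Bmf, a pro-apoptotic relative of BCL2, averaged 2.57 ± 0.25 in 1:1 rats and 1.63 ± 0.362 in casein rats, a rise of 0.94 (adjusted p = 0.00654). Myo16, an unconventional myosin, rose by 1.52 (adjusted p = 0.0143) at 1 probe set and differed by 0.22 without passing at another, and the first did not pass without casein rat 5 and 3:1 rat 1.

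On the falling side, Fabp5, a carrier of fatty acids, stood at 4.43, 4.47, 5.07, 5.17 and 5.34 in 1:1 rats and at 6.71, 6.85, 7.23, 7.61 and 7.61 in casein rats, and fell by 2.31 (SE 0.32, adjusted p = 0.000519, limma). Fabp2, the intestinal form of these carriers, stood at 1.65, 1.67, 1.74, 1.84 and 2.33 in 1:1 rats and at 3.27, 3.38, 3.51, 3.70 and 3.89 in casein rats, and fell by 1.70 (adjusted p = 6.97e-05). Ddhd1, a phospholipase, fell by 1.89 (adjusted p = 0.000181). All 3 of these lipid-handling genes lay apart between the diets in every rat. On conventional soybean Fabp5 differed from casein by -1.52 (adjusted p = 0.0208), Fabp2 by -1.43 (0.000879) and Ddhd1 by -1.72 (0.00126). On the 3:1 diet the differences were -1.33 (0.159), -1.21 (0.0106) and -0.67 (0.424) in that order. Wfdc21, a small secreted protein with a whey acidic protein domain, stood at 4.28, 4.30, 4.50, 4.64 and 5.10 in 1:1 rats and at 6.0, 6.10, 6.63, 6.74 and 6.80 in casein rats, and fell by 1.89 (adjusted p = 0.000346), and it differed from casein by -1.78 on conventional soybean and by -1.73 on the 3:1 diet. Rab33a, a small GTPase of vesicle traffic, stood at 2.24, 2.26, 2.26, 2.31 and 2.41 in 1:1 rats and at 3.35, 3.41, 3.45, 3.54 and 3.60 in casein rats, and fell by 1.17 (adjusted p = 0.00116). Aldh1b1, a mitochondrial enzyme and the 1 of 16 listed aldehyde dehydrogenases to pass (list median -0.06), fell by 1.78 (adjusted p = 0.0212), lost without casein rat 5 (0.0634) or 1:1 rat 2 (0.0758). Its 1:1 rats spread from 1.70 to 3.77, against 4.15 to 4.89 in casein rats.

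The lipid lists gave the largest list medians of the comparison. Of 21 lipogenesis genes 12 fell and 0 rose, with a median of -1.06, and of 19 cholesterol synthesis genes 9 fell and 0 rose, with a median of -0.57. Without casein rat 5 and 3:1 rat 1 the lipogenesis count was 7, and without rat 1 of all 4 diets it was 8. Of 25 genes of fatty acid oxidation 0 passed in limma and 4 had an unadjusted p under 0.05, with a median of 0.04. Pnpla3, a lipid droplet acyltransferase and lipase, fell by 5.04 (adjusted p = 0.00647), and its differences from casein were -3.69 on conventional soybean (adjusted p = 0.0493) and -2.0 on the 3:1 diet (adjusted p = 0.606).

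Markers of other cell types mostly did not pass. Of 10 macrophage and Kupffer cell markers 0 passed in limma, 6 had an unadjusted p under 0.05 (60.0%, against 17.5% of all genes), 9 were below 0 (against 43.3% of all genes) and the median was -0.30, and their summed signal ran from 226.3 to 305.8 in 1:1 rats and from 243.3 to 334.6 in casein rats. Cd14 was the marker above 0, at 1.38. Of 29 interferon response genes 0 passed, 4 had an unadjusted p under 0.05 (13.8%), 24 were below 0 and the median was -0.22, with Gbp2 at -0.64 as the member of smallest p (adjusted p = 0.114). Of 19 genes of antigen presentation 0 passed and 4 had an unadjusted p under 0.05. Of 9 endothelial, 12 lymphocyte and 8 muscle markers 0 passed and 0 had one, although 7 of 9, 11 of 12 and 8 of 8 of them lay above 0, of 12 stellate, 5 neutrophil and 5 red blood cell markers 0 passed and 2 of each had one, and of 10 pancreas markers 0 passed and 1 had one. Epcam, a surface protein of bile duct cells, stood at 1.5, 1.75, 1.85, 2.08 and 2.19 in 1:1 rats and at 2.54, 2.59, 2.86, 2.92 and 3.19 in casein rats, and fell by 0.95 (SE 0.158, adjusted p = 0.00251). On conventional soybean Epcam differed from casein by -0.71 (adjusted p = 0.0257). The other 6 of 7 bile duct markers did not pass, with Krt7 at -0.05 and Krt19 at 0.88, and the summed signal of the list ran from 41.2 to 44.2 in 1:1 rats and from 36.4 to 49.8 in casein rats. Cfd, which serves as an adipose marker and a complement factor, fell by 0.64 (adjusted p = 0.0334), lost in 6 of the 20 fits without 1 array. The part of any change in cell make-up in the results above was not tested.

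**Figure D5:**
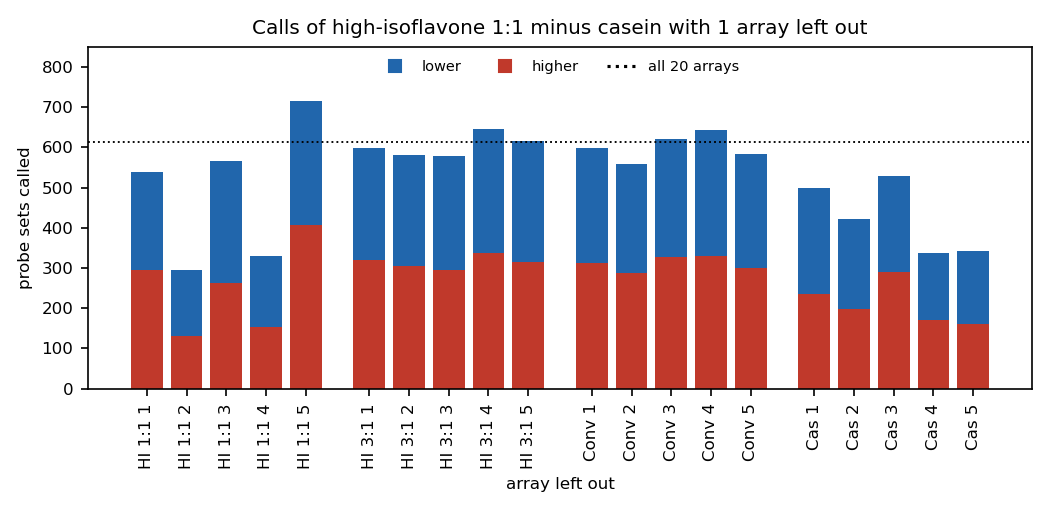
Number of probe sets called between the high-isoflavone 1:1 diet and casein with 1 array left out (vertical), for each of the 20 arrays (HI 1:1, HI 3:1, Conv for conventional soybean and Cas for casein, with the rat number). Red parts are higher and blue parts lower on the 1:1 diet, and the dotted line is the count of 613 with all 20 arrays; the lowest count is 296, without 1:1 rat 2, and the highest is 716.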

How the data were processed

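RNA of 20 rat livers was amplified and labelled from the 3′ end and hybridised to a whole-genome expression array, 1 array per rat. The deposited values were normalized by the authors with the SuperNORM data service, per the labels (no version or steps are stated). The log base of the deposited values is not stated: log10 was inferred, because the slope of the array's spike-in controls was 0.9965 ± 0.0242 (SD, 20 arrays) when read as log10, and each log2 difference and fold rests on it. Values were multiplied by 3.3219 to give log2. The signal over background is not given, so precision rests on 5 arrays per diet. No 2 arrays were identical.

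Of 31099 probe sets, 57 controls and those among 3342 with no value were left out, and 27702 were tested. Symbols came from the array's platform annotation: 19147 had 1 symbol, 404 several and 8151 none, which gave 13462 genes, each read by the brightest of its probe sets over the 20 arrays. limma 3.58.1 in R 4.3.3 fitted 1 mean per diet over all 20 arrays, with a trend of the spread, and called probe sets at a Benjamini-Hochberg adjusted p under 0.05, two-sided. The fit was tested on simulated data. Array medians and control probe sets were compared with exact permutation tests (scipy 1.17.1). The p-values measure the spread between rats of 1 experiment.

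Named genes were the 15 largest rises and 15 largest falls outside lipid and cholesterol synthesis and the 10 smallest adjusted p among genes called in each fit without 1 array and not overlapping; up to 6 called members of each list, or the member of smallest p; up to 5 calls in each direction against the other soybean diets; and all metallothioneins, sulfotransferases and insulin receptor substrates. Other list members are named with values as background to these. The comparison, the 44 function lists and the 11 marker lists (1209 symbols, 1018 measured) were chosen with earlier results of these data known. The titles number the rats, and the numbers were not taken to pair them. Alternatives were 3 scalings, the 10 compared arrays alone, no trend, no dim probe sets, array weights, a replicate block, and leaving out arrays.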

Additional observations from a re-analysis of the deposited data

Results flagged for a closer look

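In the named genes whose 2 diets were examined, the highest or the lowest of 5 rats stood apart from the other 4 in 12 of 170 groups by Dixon's criterion (critical value 0.71), and chance flags about 1 group in 20. Rat 2 of the high-isoflavone 1:1 diet was the lowest of its group in 4930522L14Rikl, at 0.86, in Rpl26, at 6.66, and in Rps24, at 6.65. In the same diet rat 3 was the highest in Cyp51, a demethylase of cholesterol synthesis, at 6.15, and in Pgd, of the pentose phosphate pathway, at 5.35, and rat 5 was the highest in Fabp2, at 2.33. Among casein rats, rat 1 was the lowest in Commd6, at 3.65, in Pdhx, at 3.15, in Pgd, at 5.78, and in Sc5d, a desaturase of cholesterol synthesis, at 5.89. Casein rat 3 was the highest in Ccnd2, a cyclin, at 2.05, and casein rat 4 was the highest in Hspe1, a mitochondrial chaperonin, at 7.32.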

How the results depend on the processing

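Between the high-isoflavone 1:1 diet and casein, 312 probe sets and 187 genes were called without casein rat 5 and 3:1 rat 1, whose arrays have a higher floor of the signal, and 380 probe sets and 210 genes without rat 1 of all 4 diets, against 613 and 340 with all arrays. Against conventional soybean, 13 probe sets passed with arrays centred and scaled and 13 without rat 1 of all 4 diets, against 21. With 1 array left out, the counts ran from 296 to 716 probe sets and from 181 to 396 genes against casein, from 11 to 31 probe sets against conventional soybean and from 0 to 1 against the 3:1 diet, and the difference in array medians from 0.032 to 0.0617. Higher and lower probe sets against casein were 317 and 296 as deposited, 235 and 374 after quantile normalization, 202 and 385 with arrays centred and 180 and 471 with arrays centred and scaled, which moved the median of all genes from 0.03 to between -0.03 and -0.01. With the replicate block 659 probe sets were called against casein, 23 against conventional soybean and 0 against the 3:1 diet; deviations of same-numbered arrays correlated above 0.1 in 12 of 30 pairs, among them all 6 pairs of number 1 (0.203 to 0.401), 2 of 5 high-isoflavone 1:1 arrays correlated best with the casein array of their own number, and of 82 called named genes Dao, Hmox1 and Slc37a4 were lost while the uncalled Orm1 and Sult1c3 passed (0.0498 and 0.0429). The labels do not say whether the number 1 arrays share a batch. Without the arrays of higher floor 19 were lost (Aldh1b1, Bckdk, Ccnd2, Cyp3a18, Dao, Hmox1, Hspe1, Idh2, Irs3, Lipc, Mup5, Myo16, Pdhx, Psma2, Slc37a4, Slco1a4, Suox, Tat and Thrsp), and without rat 1 of all diets 20 (Car8, Ccnd2, Cfd, Cyp3a18, Dao, Hmox1, Hspe1, Idh2, Lipc, Lrit1, Ndufa5, Nr1i3, Osgin1, Psma2, Slc37a4, Slc6a13, Suox, Tat, Thrsp and Vps37c). Other settings lost 9 (centred and scaled: Baat, Car3, Cyp2c13, Cyp3a23-3a1, Dao, Idh2, Mup5, Slc37a4 and Suclg2), 7 (the 10 arrays alone: Ccnd2, Cfd, Hmox1, Idh2, Osgin1, Pdhx and Tekt4), 6 (no trend: Dao, Hmox1, Hspe1, Idh2, Mup5 and Slc37a4), 4 (centred: Dao, Idh2, Mup5 and Slc37a4), 2 (quantile: Dao and Idh2), 1 (array weights: Idh2) and 0 of 81 (no dim probe sets), and 60 of the 82 passed in each fit without 1 array. Uncalled named genes also passed: Lhpp, Nupr1 and Yars1 (quantile), Nupr1, Txn2 and Yars1 (centred), and all of these with Eef1b2 (centred and scaled). Array weights gained Nupr1, Orm1, Rdh10, Slc25a13 and Txn2, the 10 arrays alone Mt2A, Nlrc5 and Orm1, and no dim probe sets Rdh10. Without the arrays of higher floor Nupr1 passed, and without rat 1 of all diets Gstt2, Orm1 and Slc25a13. The count of 0 passed in some lists above thus depended on the setting. No called named gene changed sign, while the uncalled Sult1b1 reversed to -0.0558 with arrays centred and scaled. The causes of these shifts were not tested.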

Other observations

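Lists of other functions had 0 or 1 call each between the high-isoflavone 1:1 diet and casein. Of 20 genes of methionine metabolism, Suox, sulfite oxidase, fell by 0.42 (adjusted p = 0.0214, limma), and 0 rose. Of these 20 genes, 10 had an unadjusted p under 0.05, a larger share than the 17.5% of all genes. Above 0 lay 14 of them and below 0 lay 6, with differences from -0.80 to 0.85. Of 35 cell cycle genes, Ccnd2, a cyclin, fell by 0.63 (adjusted p = 0.0236), and of 25 heat shock genes, Hspe1, a mitochondrial chaperonin, fell by 0.53 (adjusted p = 0.0314). Each of these 3 calls was lost in 4 to 6 of the 20 fits that left out 1 array. Of 24 genes of vitamin A metabolism 0 passed in limma and 7 had an unadjusted p under 0.05, with Rdh10, a retinol dehydrogenase, at 0.43 (adjusted p = 0.0559). Of 24 acute phase proteins 0 passed and 6 had one, with Orm1 at 0.55 (adjusted p = 0.0694, or 0.0498 with the replicate block). Further rises outside the lists were in Fhad1, by 0.84, Tekt4, a tektin of cilia and flagella, by 0.81, Vps37c, of the sorting of membrane proteins, by 0.82, and Lrit1, by 0.88, all at adjusted p from 0.0079 to 0.0129 in limma and without overlap between rats. At a second, dimmer Vps37c probe set the difference was 0.15 and did not pass (adjusted p = 0.686).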
